A study of Mus musculus with 75 samples.

Results

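Regulatory T cells (Tregs) are CD4 T cells, marked by the transcription factor Foxp3, that hold back the activation and growth of other T cells. A T cell receiving signals through its antigen receptor and CD28 leaves its resting state, changes the RNA levels of a large part of its genes and increases protein synthesis. RiboTag is a way of reading the RNA that is held by ribosomes in 1 chosen cell type: Cre recombinase switches the ribosomal protein Rpl22 to a hemagglutinin-tagged form, and precipitating the tag brings down ribosomes with their RNA (IP). RNA bound to ribosomes depends both on how much of an RNA a cell holds and on how readily it is loaded with ribosomes, so it is read beside the total RNA of the same culture (Input).

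The comparison described here is of ribosome-bound RNA in stimulated effector CD4 T cells (CD4+CD25-) with and without added Tregs. It used 10 of the 75 libraries of the study, chosen by their titles: the 5 IP libraries of cultures with Tregs and the 5 IP libraries of stimulated cultures, paired by the mouse number that both share. The effector cells came from spleen and lymph nodes of mice of a cross. One strain, B6N.129-Rpl22tm1.1Psam/J, carries the allele of Rpl22 that Cre switches to the tagged form, and the other strain was B6.Cg-Tg(Cd4-cre)1Cwi/BfluJ, so that Cre was driven by Cd4 sequences and both groups had the same tag. Both groups were cultured with anti-CD3/CD28 beads, and 1 of them also with Tregs, sorted as CD4+YFP+ cells. The age of the mice, the number of Tregs and the time in culture are not stated in the labels. Per the labels' protocols the stimulated controls were matched for cell density with more effector cells, or in some cases with CD45.1+ effector cells sorted from Foxp3YFP-Cre mice, and which control each mouse had is not stated. The labels do not say whether Tregs were taken out before lysis. They give the tag in the genotype of the effector cells and name none for the Tregs, so Tregs left in a culture would add to the Input, and to the IP only through untagged RNA. No precipitation from cells without the tag is among the libraries used here, so the untagged RNA that the beads carry along was not measured.

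The 10 IP libraries held 1965515 to 2824875 gene counts each and detected 13595 to 14607 genes. The 5 mice are separate animals per the labels, so the spread between replicates includes the spread between mice. The other libraries used for comparison were the 10 Input libraries of the same cultures and the 10 IL7-rested libraries of the same mice. A further 36 libraries were of SPEED, from untreated, stimulated and Treg cultures of B6.SJL-PtprcaPepcb/BoyJ cells of 4 other mice. In SPEED, RNA was separated on sucrose into polysomal (Pol) and subpolysomal (SubPol) RNA beside an Input. No tag is used in that separation, so Tregs left in a culture would add to each fraction. Genes are given by the Ensembl identifiers of the count tables, which hold no gene names, and none of the 53465 identifiers could be matched to a symbol. The lists of pathway genes and the markers of T cells, Tregs and other cell types were therefore not tested, and the labelled cell type was not checked against its markers. Genes are described below by their level, by their response to stimulation, by their place on polysomes and by their values in each mouse.

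With Tregs, 585 genes were higher and 492 lower in ribosome-bound RNA than without, of 10751 tested (n = 5 mice per group). That is 10.0% of the tested genes, 5.44% higher and 4.58% lower, by edgeR's quasi-likelihood test with the mouse as a block and a Benjamini-Hochberg threshold of 0.05. Over all levels the median rise was 0.64 on the log2 scale (1.56-fold), with quartiles of 0.47 and 0.90, and the median fall had a size of 0.45 (1.36-fold), with quartiles of 0.34 and 0.68. More of the falls lay among the most abundant genes, where small changes passed, and in the 3 lowest of 5 classes of level the median fall was the larger (-2.25 against 1.59, -1.11 against 0.84 and -0.68 against 0.61 from the lowest class up). The largest fall was 5.12 in size and the largest rise 3.63. At least 1.5-fold, 341 genes were higher (3.17% of those tested) and 152 lower (1.41%). At least 2-fold, 116 were higher (1.08%) and 75 lower (0.698%), and at least 4-fold 29 were higher (0.270%) and 25 lower (0.233%). Under 1.2-fold lay 13 of the genes that rose and 36 of those that fell. Tested against a minimum change of 1.2-fold rather than against no change, 181 genes were higher (1.68%) and 81 lower (0.753%). In bulk RNA, fewer cells of a type and less RNA per cell cannot be told apart, and scaling by library size hides any change in the total amount of RNA.

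The count depended on which mice were used. Without mouse 5 it was 403 genes (253 higher, 150 lower) and without mouse 3 it was 617 (346 higher, 271 lower). Without mouse 1, 2 or 4 it was 745, 772 and 800. Without the mouse as a block it was 612, of which 611 were among the 1077. A smaller core of 315 genes, 195 higher and 120 lower, passed in the same direction in every one of the 5 fits that leave out a mouse.

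The values by gene were as follows for the genes with the largest changes in each direction, among those with a mean level of at least 3 on the log2 CPM scale and the same sign in 5 of 5 mice. That rule held for 473 genes that rose and 440 that fell, and the leading 2 of each are given. CPM are counts scaled to a common library size, with the TMM factors of edgeR.

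**Figure D1:**
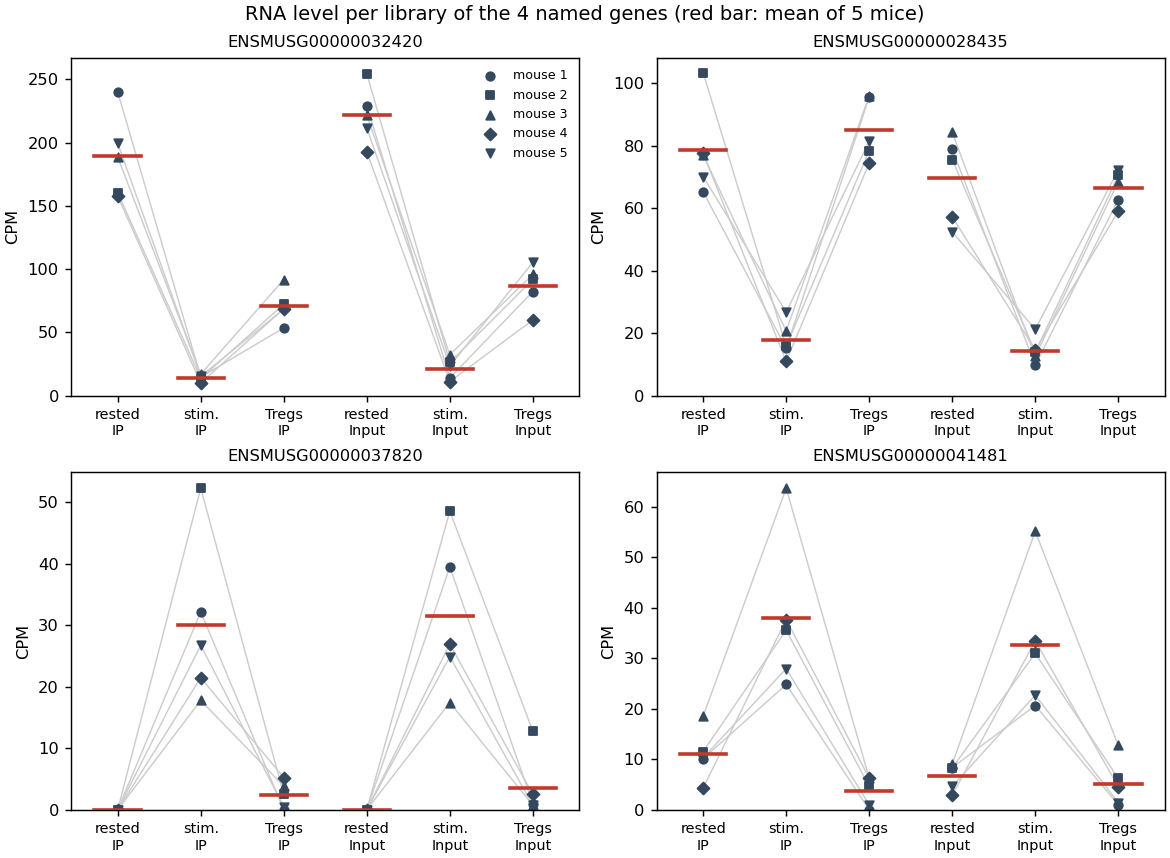
Level in CPM (vertical axis, from 0) of the 4 named genes in each RiboTag library, by culture and fraction (horizontal axis), with 1 symbol per mouse, grey lines joining libraries of a mouse and a red bar at the mean of 5 mice. In IP and in Input, both upper genes are higher in every Treg library than in every stimulated library, and both lower genes are lower in every Treg library than in every stimulated library.

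ENSMUSG00000032420 stood at 14.70, 13.61, 16.95, 10.01 and 15.38 CPM in the stimulated IP of mice 1 to 5. With Tregs it stood at 53.58, 72.32, 91.79, 68.68 and 68.43 CPM. The groups did not overlap, and mouse 3 had the highest level in both. The fitted rise was 2.33 on the log2 scale (SE 0.18, 5.02-fold, edgeR adjusted p = 1.81e-09). In IL7-rested IP the gene was higher still, at 157.69 to 240.16 CPM, so its level with Tregs lay between those of the stimulated and the rested cultures and overlapped neither. In Input it rose as well, from 21.46 ± 8.80 to 87.04 ± 17.34 CPM (SD, n = 5).

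ENSMUSG00000028435 was at 15.16, 15.81, 20.67, 10.96 and 26.72 CPM in the stimulated IP of mice 1 to 5. With Tregs its levels were 95.51, 78.34, 95.97, 74.45 and 81.35 CPM. The groups did not overlap, and the rise was smallest in mouse 5, which had the highest stimulated level. The rise was 2.26 on the log2 scale (SE 0.19, 4.77-fold, edgeR adjusted p = 3.66e-09). The rested IP libraries held 65.20 to 103.31 CPM, a range that contains all 5 Treg values. In Input the gene went from 14.40 ± 4.24 to 66.56 ± 5.54 CPM (SD, n = 5).

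ENSMUSG00000037820 was at 32.15, 52.25, 17.77, 21.45 and 26.72 CPM in the stimulated IP of mice 1 to 5. With Tregs it was at 0.00, 2.48, 3.84, 5.24 and 0.48 CPM, which is 0, 7, 11, 10 and 1 counts. The groups did not overlap, and the counts with Tregs were near 0 in mice 1 and 5. The fitted change was -3.61 on the log2 scale (SE 0.57, edgeR adjusted p = 3.97e-04), and the size of the fold is imprecise at such counts. None of the 5 rested IP libraries held a count, which allows a level of up to 0.264 CPM over their 11349852 summed counts, an upper limit for counting error only. In Input the gene went from 31.44 ± 12.41 to 3.54 ± 5.22 CPM (SD, n = 5), with 12.78 CPM in mouse 2 and at most 2.49 CPM in the others.

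ENSMUSG00000041481 was at 24.80, 35.56, 63.66, 37.65 and 27.93 CPM in the stimulated IP of mice 1 to 5. With Tregs the levels were 0.00, 4.61, 6.28, 6.29 and 0.96 CPM, or 0, 13, 18, 12 and 2 counts. Again the groups did not overlap and mice 1 and 5 were lowest with Tregs. The change was -3.46 on the log2 scale (SE 0.41, edgeR adjusted p = 3.90e-06). This gene was present in rested IP, at 4.31 to 18.52 CPM. The ranges of the rested and Treg libraries overlapped. In Input it went from 32.58 ± 13.73 to 5.19 ± 4.75 CPM (SD, n = 5).

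Each of the 4 genes kept its direction and passed the test in all 13 alternative fits. The fits used the same libraries or parts of them, and the genes were chosen for large changes, so this was likely beforehand. The highest edgeR or DESeq2 adjusted p over them was 9.66e-07 for ENSMUSG00000032420, 2.01e-06 for ENSMUSG00000028435, 0.00471 for ENSMUSG00000037820 and 2.50e-04 for ENSMUSG00000041481.

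Most of the changed genes moved the same way in every mouse, but their values in Treg and stimulated libraries often overlapped. The log2 CPM difference had 1 sign in 5 of 5 mice for 518 of the 585 genes that rose and 461 of the 492 that fell; over all tested genes this held for 25.2%. Every Treg library lay above every stimulated library for 231 of the genes that rose (2.71% of all tested genes did so), and below for 202 of those that fell (3.04% of all). The genes were called on these same libraries with the mouse as a block, which favours 1 sign and separate groups. These shares are therefore not separate evidence that the changes recur. The differences of 2 mice correlated across the 6930 genes with a mean level of 5 log2 CPM or more, called well measured below, with r between 0.25 and 0.55, with a median of 0.44 over the 10 pairs of mice. These are correlations across genes, which are not independent replicates, and the points of a mouse share its 2 libraries. The spread of the differences over these genes was widest in mouse 5, with an SD of 0.45 on the log2 scale, and 0.33 to 0.40 in the others.

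A mouse not used to choose the genes showed the same direction for most of them. Genes that passed in 4 mice were looked up in the mouse left out. Of those that had risen, 87.5% to 95.4% were higher with Tregs in the left-out mouse, where over all genes with a positive change in the other 4 it was 61.1% to 66.7%. Of those that had fallen, 91.0% to 98.7% were lower in the left-out mouse, against 63.7% to 69.2% over all genes. With mouse 5 left out, 238 of 253 genes that had risen and 147 of 149 that had fallen had the same sign in mouse 5. The median difference in the left-out mouse was smaller than in the other 4 for the genes that rose, for example 0.45 against 0.73 on the log2 scale with mouse 4 left out. For the genes that fell it was -0.30 against -0.52 in mouse 4, and -0.62 in mouse 5 itself and in the 4 mice that chose them. Mouse 5, which moved the count most when left out, thus showed the direction of the genes chosen in the others.

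**Figure D2:**
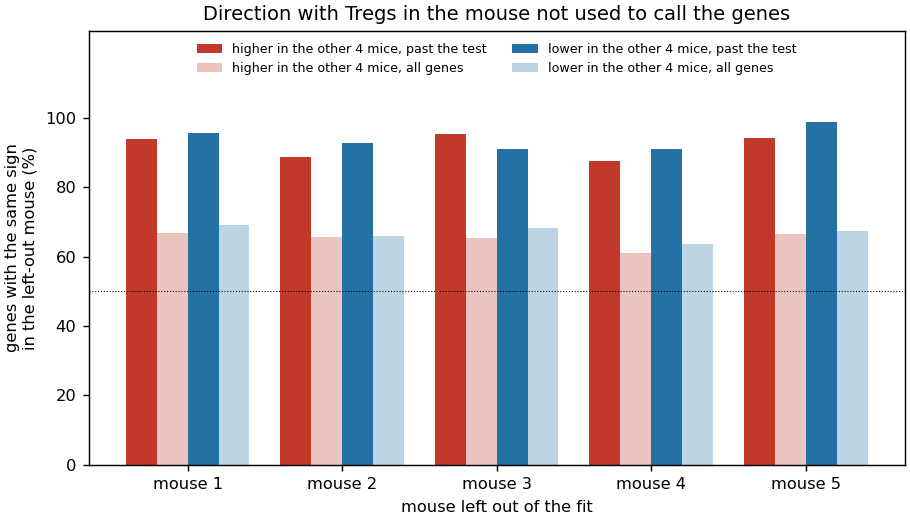
Share of genes, in percent (vertical axis, from 0), whose difference with Tregs in the mouse left out (horizontal axis) had the sign seen in the other 4 mice. Dark bars are genes past the test in those 4 mice and pale bars all genes of that sign (red higher, blue lower, dotted line at 50): the dark bars reach 87.5 to 98.7 percent and the pale bars 61.1 to 69.2 percent.

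The genes that fell were more abundant than those that rose. Their median level was 7.28 log2 CPM, against 5.99 for the genes that rose; these are levels by count, which also grow with the length of a transcript. The tested genes were divided into 5 equal classes by level. In the class with the highest counts (7.22 to 10.08 log2 CPM), 118 genes rose and 256 fell. In the next to lowest class (3.73 to 5.25 log2 CPM), 138 rose and 35 fell. The shares called were 5.44%, 8.05%, 7.81%, 11.4% and 17.4% from the lowest class to the highest, as the median standard error fell from 0.45 to 0.09. The median change of all genes in a class followed the same order: 0.21, 0.08, 0.01, -0.03 and -0.08 on the log2 scale from the lowest to the highest. In the highest class falls outnumbered rises in all 10 other fits divided in this way, from 49 rises against 66 falls without mouse 5 to 206 against 463 with only the 20 stimulated and Treg libraries. In the lowest class the balance changed sides without mouse 5, with 21 rises and 23 falls.

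Values that moved with abundance in other libraries stand beside this. In Input the median change over the same classes of genes ran from 0.17 in the lowest to -0.08 in the highest, with 130 rises and 176 falls in the highest. In the Pol fraction of SPEED, from other mice, it ran from 0.09 to -0.07, though there 14 genes rose and 1 fell in the highest class. The counts of the most abundant genes were low for libraries of this depth: the highest count of any gene was 2340 to 2907, or 0.102% to 0.131% of a library, and the 100 highest genes held 6.35% to 7.42%. Picard, which can remove duplicate reads, is named in the submitters' processing notes without its role. Its part in the folds of abundant genes was not tested.

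**Figure D3:**
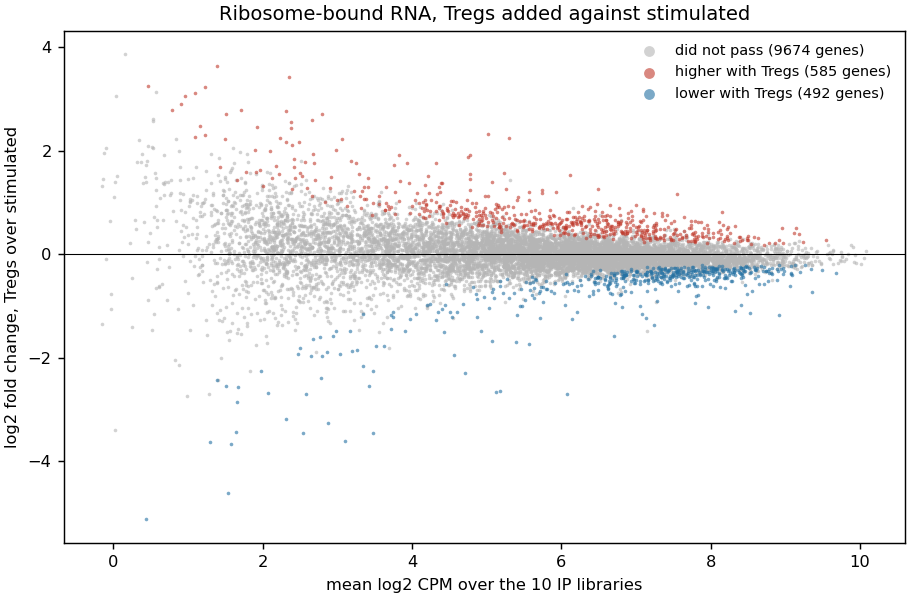
Log2 fold change of ribosome-bound RNA with Tregs over stimulated (vertical axis) against the mean level over the 10 IP libraries in log2 CPM (horizontal axis), 1 point per tested gene. The 585 genes that rose (red) spread over all levels, and the 492 that fell (blue) gather above 7.22 log2 CPM, where 256 of them lie.

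The genes that rose with Tregs were mostly genes that stimulation lowered, and those that fell mostly genes that stimulation raised. To keep this free of shared libraries, the response to stimulation was taken from the Input of SPEED, where 3422 genes were higher in stimulated than in untreated cells (29.3% of 11666 tested) and 3099 lower (26.6%; edgeR, n = 4 mice per group). Of the 581 genes that rose with Tregs in IP and were tested there, 399 (68.7%) were lowered by stimulation, 39 (6.71%) raised and 143 (24.6%) not called. Of the 477 that fell, 283 (59.3%) were raised by stimulation, 74 (15.5%) lowered and 120 (25.2%) not called. Over all 10649 genes tested in both assays, 30.3% were raised, 27.6% lowered and 42.1% not called. The split held without mouse 5, where 73.0% of the genes that rose were lowered by stimulation and 62.1% of those that fell were raised by it. Without mouse 3 these shares were 68.7% and 51.6%.

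Read from the side of stimulation, few of its genes were called with Tregs. Of the 3229 genes raised by stimulation, 283 fell with Tregs (8.76%, against 4.58% of all genes) and 39 rose (1.21%, against 5.44%), and their median change was -0.12 on the log2 scale. Of the 2934 genes lowered by stimulation, 399 rose (13.6%) and 74 fell (2.52%), with a median of 0.15. For the lowered genes the median grew with the response to stimulation. It was 0.26 for the 1393 lowered at least 2-fold and 0.33 for the 385 lowered at least 4-fold. The shares called did not follow this order: 16.7% of the 1393 and 15.3% of the 385 rose, and 2.58% and 4.68% fell. Among the raised genes the median was -0.15 for the 1579 raised at least 2-fold and -0.13 for the 776 raised at least 4-fold. The 4486 genes with no call on stimulation had a median of 0.03, with 143 rises and 120 falls. Over all tested genes the median was 0.00.

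**Figure D4:**
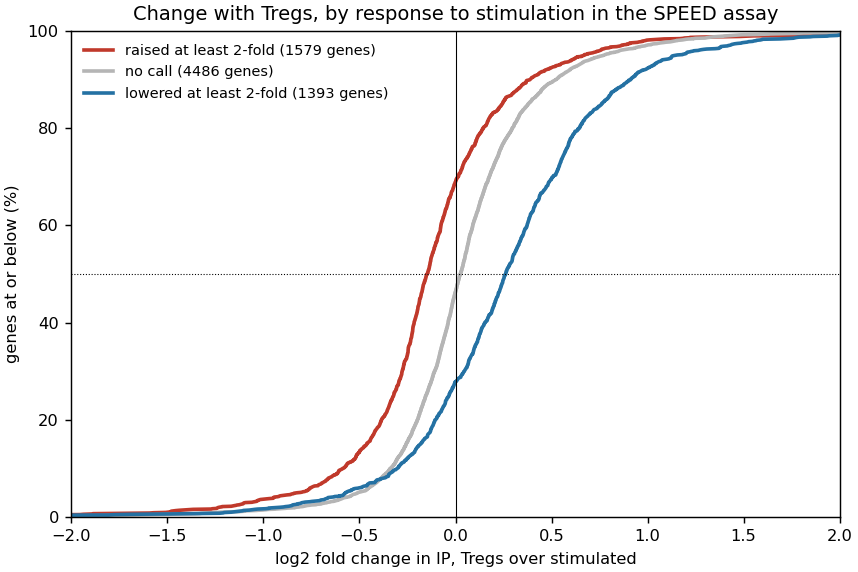
Cumulative share of genes in percent (vertical axis) at or below a given log2 fold change of ribosome-bound RNA with Tregs (horizontal axis, drawn from -2 to 2), for genes raised at least 2-fold (red), lowered at least 2-fold (blue) or not called (grey) on stimulation in the SPEED Input. The curves cross the dotted line at 50 percent at the medians of -0.15, 0.26 and 0.03.

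A smaller group of genes moved with Tregs in the direction of stimulation, 39 that rose and 74 that fell. The 39 genes had a median rise of 0.95 on the log2 scale in IP, above the 0.64 of all genes that rose. The median rise of called genes depended on level, from 1.59 in the lowest class to 0.37 in the highest. The level of the 39 was not taken into account. The response to stimulation and the change in SPEED Pol share cultures, so the shares that follow are set beside those of all genes with the same response. In SPEED Pol, 33 of the 39 were also higher with Tregs, where 25.2% of all genes raised by stimulation were higher. The 74 genes had a median fall of 0.55 in size in IP, and in SPEED Pol 35 of the 74 (47.3%) were lower with Tregs, where 25.4% of all genes lowered by stimulation were lower. Of the 74 genes, 3 passed the test in SPEED Pol in the opposite direction, that is higher with Tregs. Among the 39 genes, 1 passed in SPEED Pol, and it was higher in both assays.

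Ribosome-bound RNA and total RNA changed in the same direction with Tregs for nearly all called genes. In the Input of the same cultures, 498 genes were higher (4.63% of those tested) and 345 lower (3.21%), 7.84% in all. Of the 585 genes that rose in IP, 579 had a positive change in Input and 331 passed there too, which is 56.6% of the IP list and 66.5% of the Input list. Of the 492 that fell in IP, 486 had a negative change in Input and 231 passed, 47.0% of the IP list and 67.0% of the Input list. No gene passed in opposite directions. The genes that rose in IP had medians of 0.64 in IP and 0.52 in Input on the log2 scale; the genes that rose in Input had 0.55 in IP and 0.63 in Input. For the genes that fell in IP the medians were -0.45 in IP and -0.36 in Input, and for those that fell in Input -0.41 in IP and -0.45 in Input. Each list was thus somewhat more changed in the fraction that chose it. IP and Input libraries come from the same culture, so the 2 fractions are not independent measurements of the effect. The Input may also hold cells that the IP reads only through untagged RNA, such as Tregs left in the culture. In some controls this may also hold for the CD45.1+ effector cells. The Input count also depended on the mice: without mouse 1, 2, 3, 4 or 5 it was 555, 735, 381, 530 and 404 genes in place of 843.

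**Figure D5:**
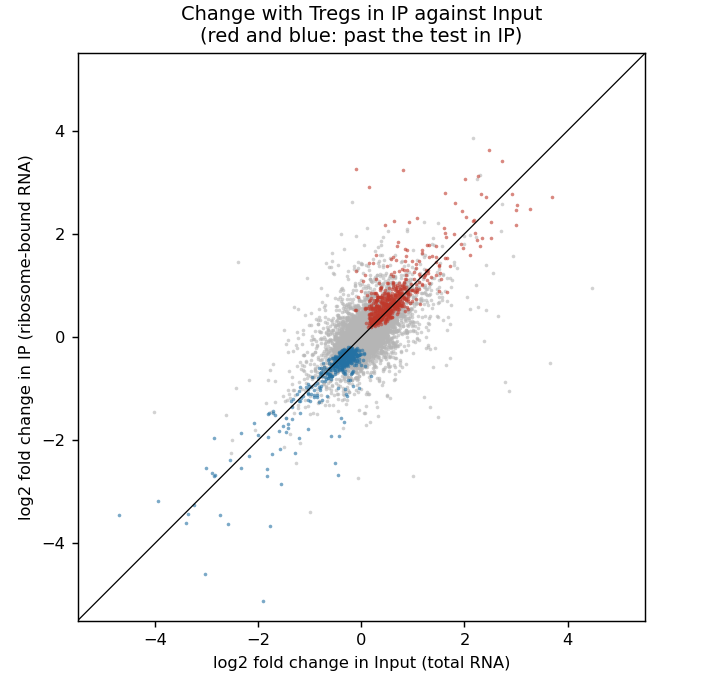
Log2 fold change with Tregs over stimulated in IP (vertical axis) against Input (horizontal axis), 1 point per tested gene, with the line of equal change. Of the genes past the test in IP, 579 of the 585 that rose (red) and 486 of the 492 that fell (blue) have the same sign in Input.

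The ratio of IP to Input did not pass the test for any gene. With Tregs against stimulated, 0 of 10751 genes had an adjusted p under 0.05 in edgeR (0% called), with 199 at an unadjusted p under 0.05. DESeq2 called 0 as well, with 225 at an unadjusted p under 0.05, and with the culture as a block edgeR called 0, with 337. Each of these counts is under the share of 0.05 that chance alone would give, so the tests were on the strict side. The precision of the ratio of IP to Input sets what could have been seen. The SE and intervals below are from the fit with the mouse as a block. That fit does not pair the IP and Input of a culture. Among 6930 well measured genes the median SE of the ratio was 0.18 on the log2 scale. The 95% interval excluded a 2-fold change in either direction for 97.8% of them and a 1.5-fold change for 71.0%. Among the 1077 genes past the test in IP the shares were 82.6% and 57.0%. Changes of the ratio under 1.5-fold were therefore not excluded for many genes. The intervals bound the ratio and not ribosome loading itself. Untagged RNA in the IP was not measured, and the Input may hold cells without the tag. For the named genes the change of the ratio was 0.30 (95% interval -0.19 to 0.80) for ENSMUSG00000032420 and 0.08 (-0.45 to 0.61) for ENSMUSG00000028435. It was -0.21 (-1.78 to 1.36) for ENSMUSG00000037820 and -0.72 (-1.83 to 0.40) for ENSMUSG00000041481, intervals that leave room for a 2-fold change either way or downwards.

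Polysomes are mRNAs carrying several ribosomes, and the place of a gene on them in SPEED gave another division of the genes. The 981 genes that Pol held at least 2-fold above SubPol in stimulated SPEED cells showed 33 rises (3.36%) and 71 falls (7.24%) with Tregs in IP, with a median of -0.09. The 973 genes at least 2-fold below showed 62 rises (6.37%) and 18 falls (1.85%), with a median of 0.13. Over all tested genes 5.44% rose and 4.58% fell. The medians of the same genes in Input were -0.03 and 0.07. With the genes chosen in untreated SPEED cells the shares that rose were close, 34 of 805 polysomal genes (4.22%) and 23 of 568 subpolysomal genes (4.05%), while 44 (5.47%) and 8 (1.41%) fell, with medians of -0.06 and 0.12. In all cultures the polysomal genes lay higher in IP over Input than the subpolysomal genes. This separation, the mean log2 IP over Input of the first group minus that of the second, was 0.48 ± 0.13 in rested, 0.46 ± 0.14 in stimulated and 0.38 ± 0.16 in Treg cultures (SD, n = 5). By mouse 1 to 5 it was 0.40, 0.70, 0.42, 0.46 and 0.33 in stimulated and 0.23, 0.50, 0.45, 0.53 and 0.20 in Treg cultures. It was lower with Tregs in mice 1, 2 and 5 and not in mice 3 and 4, the groups overlapped, and the mean difference was -0.08 ± 0.12. With genes chosen in untreated SPEED cells the difference was -0.14 ± 0.20 (SD, n = 5), with a Treg value of 0.04 in mouse 5.

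In polysomal RNA of other mice, most genes that rose in IP were also higher with Tregs. Agreement was weaker for the genes that fell in IP. In SPEED Pol, 35 genes were higher with Tregs (0.300% of 11666 tested) and 7 lower (0.0600%; n = 4 mice per group) in a fit without the mouse as a block, and 68 were higher and 14 lower with the block. Without the block, the count of 42 genes was 2, 4, 11 and 13 without mouse 2, 4, 1 or 3 of that assay. Of the 35 genes higher there, all tested in IP, 17 also rose in the IP (48.6% of the Pol list, 2.93% of the IP list) and 3 fell. Of the 7 lower in Pol none passed in the IP, where their median change was -0.25 on the log2 scale. In SPEED SubPol 122 genes were higher with Tregs (1.05%) and 35 lower (0.300%), and of those tested in IP 51 of 121 rose there (42.1% of the SubPol list, 8.78% of the IP list) and 5 of 35 fell (14.3% and 1.05%). The SPEED Input gave 56 higher (0.480%) and 13 lower genes (0.111%). Of the 56, 31 rose in IP (55.4% of the SPEED list, 5.34% of the IP list), and of the 13, 3 fell (23.1% and 0.629%). In the opposite direction, 6 of the 121 (4.96%) and 1 of the 56 (1.79%) fell in IP, and 1 of the 35 lower in SubPol (2.86%) rose. Over all 10649 genes tested in both assays, 5.46% rose and 4.48% fell in IP. SubPol and Input of SPEED come from the same 4 mice as the Pol. Tregs left in those cultures would add to each of these fractions.

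Over whole lists, 515 of the 581 genes that rose in IP (88.6%) had a positive change in SPEED Pol, where 49.6% of all genes did. Of the 477 that fell, 367 (76.9%) had a negative change, where 50.4% of all genes did. Of the 399 that rose and were lowered by stimulation, 90.7% were higher in Pol, where 74.5% of all genes lowered by stimulation were. Of the 283 that fell and were raised by stimulation, 91.5% were lower in Pol, where 74.8% of all genes raised by stimulation were. In both classes the margin was smaller than over the whole list. The median changes in Pol over the whole lists were 0.27 and -0.14 on the log2 scale, against 0.64 and -0.44 in the IP for the same genes. These genes were chosen for passing in IP, which favours larger changes there, so the medians do not compare the size of the effect between assays. Among genes with no call on stimulation, 120 of the 143 that rose (83.9%) had a positive change in Pol, where 50.7% of such genes did. Of the 120 that fell, 73 (60.8%) had a negative change, where 49.3% of such genes did.

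The 4 named genes differed in how far SPEED measured them. ENSMUSG00000032420 rose in SPEED Pol from 31.57 ± 6.87 to 97.65 ± 22.20 CPM (SD, n = 4; log2 change 1.63, SE 0.28, edgeR adjusted p = 0.00238). Its lowest Treg library there, at 65.12 CPM, lay above the highest stimulated one, at 36.85 CPM. Its response to stimulation in the SPEED Input was -0.35 (95% interval -0.88 to 0.18, edgeR adjusted p = 0.271), where in RiboTag IP it fell on stimulation by 3.75 on the log2 scale; the latter comparison shares the stimulated IP libraries with the comparison of Tregs. The untreated SPEED cells held 50.83 ± 21.76 CPM in Input, and the IL7-rested RiboTag cells 222.03 ± 22.80 CPM. ENSMUSG00000028435 had a change of 0.48 in SPEED Pol (SE 0.20, edgeR adjusted p = 0.499), from 74.46 ± 13.33 to 103.84 ± 25.08 CPM (SD, n = 4), with overlapping groups. The interval, 0.09 to 0.87, does not reach the 2.26 of the IP. This gene was chosen for its large change in IP, so these values do not compare the size of the effect between assays. ENSMUSG00000037820 and ENSMUSG00000041481 had too few counts in SPEED to be tested. The first had 8 counts over the 4 stimulated and 7 over the 4 Treg Pol libraries, and the second 8 and 19. Both named falls were thus in genes with few counts in the Pol of stimulated SPEED cells. In the Input of those cells the first had 5 counts and the second 30, of which 25 were in mouse 2. The assays differ in mice, in the control state (IL7-rested or untreated) and in the separation, and these cannot be told apart.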

How the data were processed

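The authors deposited 1 table per assay of raw counts, whole numbers of reads per gene. The build was GRCm38, per the submitters' processing notes, which also name HTSeq 0.4.1, Picard 1.134, FastQC 0.11.3 and SAMtools 1.2. The aligner is not given in the sources used here. Strand is not kept by the SMART-Seq v4 kit that the labels' protocols name, so overlapping genes cannot be told apart. Another 16 columns of the RiboTag counts fit no sample's title and were left out.

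Counts were fitted in R 4.3.3 with edgeR 4.0.16: filterByExpr (minimum count 10, minimum total 15), TMM factors and a robust quasi-likelihood fit over the 30 RiboTag libraries with the mouse as a block (common biological coefficient of variation 0.159), two-sided, Benjamini-Hochberg at 0.05. SPEED was fitted with 36 libraries without a block (0.215), which was tried as an alternative. HHT libraries were not used. Standard errors were computed as log2 fold change divided by the root of F, intervals are at 95 percent, and log2 CPM per library used a prior count of 2. DESeq2 1.42.0 was an alternative. Only the IP comparison of Treg and stimulated libraries was tried on simulated counts. They were drawn separately for each library, with no effect shared by the IP and Input of a culture. The ratio of IP to Input, SPEED and DESeq2 were not tried in that way.

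Samples of a number come from 1 mouse, per the labels' mouse identifiers. Deviations from the group mean of stimulated and Treg IP correlated within a mouse with r of 0.06 to 0.61 (mean 0.35) and between mice with r of -0.55 to 0.27 (mean -0.09). Such deviations cancel out over the 5 mice, so a positive mean within mice goes with a negative mean between them. Mice 1 to 4 correlated best with their own number and mouse 5, at 0.06, did not, so its pairing rests on the labels. No IP libraries of a group were copies (chi-square per degree of freedom 2.59 to 9.68 over 20 pairs). Named genes passed the test, averaged at least 3 log2 CPM and had the same sign in 5 mice, with the 2 largest changes each way printed because no symbols could be matched. The genes and groups described were chosen with earlier results of these data known.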

Additional observations from a re-analysis of the deposited data

Results flagged for a closer look

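Of 31 groups of libraries of the named genes that were checked, 1 held a library far from the others. ENSMUSG00000028435 had 6.15 log2 CPM in the stimulated SPEED Input of mouse 4, against 5.65 to 5.69 in the other 3 mice. About 1 group in 20 is marked by chance. The value belongs to no IP library, and the change of this gene with Tregs in SPEED Input did not pass (0.58 on the log2 scale, SE 0.20, edgeR adjusted p = 0.154).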

How the results depend on the processing

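The count in IP, 1077 genes, was 612 with no replicate block, 1906 with only the 20 stimulated and Treg libraries fitted with the block, and 262 against a 1.2-fold change. Without 1 mouse it was 403 to 800. Other size factors, filters, DESeq2 and the 10 compared libraries alone gave 1055 to 1554. In Input, 843 genes became 487 with no replicate block and 381 to 735 without 1 mouse. In SPEED Pol, 42 genes became 82 with the mouse as a replicate block and 2 to 13 without 1 mouse. IP over Input stayed at 0 in all alternatives run. Of the 1077 genes, 191 (132 higher, 59 lower) passed in the same direction in all 13 alternatives. The share of rises among the calls was 54.3% with TMM, 50.4% with RLE size factors and 49.0% with DESeq2. Without the block, 74.5% of the genes that rose were lowered by stimulation and 61.6% of those that fell were raised by it. The difference in polysomal separation was -0.12 to -0.05 without 1 mouse. The counts by abundance, the stimulation classes without a mouse or the block, and the separation with other genes or without a mouse were alternatives chosen after seeing the data. The cause of these differences was not tested, and low counts limit the folds of the genes that fell to near 0.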
